A study of Mus musculus with 7 samples.

Results

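Interferons are the cytokines that switch on antiviral and antigen-presenting programmes, and 42 mouse genes of these programmes were examined in whole liver. They were listed by name as 25 interferon-induced genes, 10 genes of the class I antigen presentation pathway and 7 genes of the class II pathway. These members and the further lists below were chosen with earlier results of these data known, so their shares of calls only describe them. Rows for 40 of the 42 were found among the 23347 genes of the deposited table (23 interferon-induced, 10 class I and 7 class II), and all 40 passed the filter on low counts that left 15179 genes for testing. Mx1 and Mx2 were not analysed here. The livers came from 4 B4galt1 flox/flox mice, whose labels read WT, and 3 mice labelled B4-HKO, called B4galt1 hep-/- here. In B4galt1 flox/flox mice both copies of B4galt1 are flanked by recombination sites and left intact, and in B4galt1 hep-/- mice the same floxed copies meet a Cre recombinase driven by the albumin promoter, which is active in hepatocytes. All mice were males on a C57BL/6 background that went onto the diet as young adults, the controls were littermates, and both groups were kept for 15 weeks on the CDAHFD, a fat-rich diet made with amino acids and without choline that brings on steatohepatitis. Each library came from 1 mouse, and livers of mice on other diets were not analysed here.

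Type I interferons bind a receptor whose kinases phosphorylate STAT proteins. STAT2 and IRF9 are subunits of the resulting complex ISGF3, which binds interferon-stimulated response elements (ISRE) in the promoters of antiviral genes, whereas interferon gamma acts through GAS elements. Among the induced genes are the IFIT proteins and ISG15, the 2'-5' oligoadenylate synthetases, and the GBP and IRG families of GTPases. Class I molecules, built on beta-2 microglobulin, display peptides cut by the immunoproteasome and carried into the endoplasmic reticulum by TAP on nearly every cell type, and NLRC5 is their transcriptional coactivator. Class II molecules display peptides from lysosomes, are made mainly by dendritic cells, B cells and macrophages, and depend on the coactivator CIITA and the invariant chain CD74. In liver, hepatocytes, Kupffer cells and recruited leukocytes can all answer interferon, and a whole-liver library adds them together.

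Library totals were 37838654 to 39668509 counts in B4galt1 flox/flox mice and 30608271 to 34586588 counts in mice labelled B4galt1 hep-/-, and the members were counted between 56 times (Ifit3b) and 93642 times (B2m) in a mouse. Levels are given as CPM, a gene's count relative to the library's total after TMM scaling, in the order of the replicate numbers. B4galt1 itself stood at 48.7, 53.0, 49.2 and 51.7 CPM in B4galt1 flox/flox livers and at 28.4, 23.9 and 53.7 CPM in livers labelled B4galt1 hep-/-. In the library labelled B4galt1 hep-/- replicate 3, B4galt1 RNA was therefore at the control level, which does not match its label. Whether the floxed copies were recombined in that liver cannot be told from whole-gene counts of whole liver. B4galt1 did not pass the test over the group (log2 fold change -0.52, edgeR adjusted p = 0.181), but did without that library (-0.96, edgeR adjusted p = 0.0139). With all 7 mice it was called lower by limma on log2(FPKM + 1) (-0.67) and log2(FPKM + 0.1) (-0.73), on genes that reach an FPKM of 1 in 3 mice. The direction of every comparison below rests on the labels, and results are also given without that library. Mitochondrially encoded genes took 3.88% to 7.996% of counts in B4galt1 flox/flox livers and 14.4% to 22.6% in the others, and their part in the results was not tested beyond leaving those genes out, which changed none of the members' calls. B4galt1 flox/flox replicate 3 stood apart in endothelial markers, with a summed level of 294.8 CPM against 69.9 to 116 CPM in the other 6 livers. Of 6 such markers (16.7% called, against 15.8% of all genes tested), Kdr was called lower (log2 fold change -1.33, edgeR adjusted p = 0.0441). Its call was lost in 5 of the 7 fits that left out 1 mouse, among them that without this liver. Markers of hepatocytes summed to between 74098 and 143509 CPM in every liver, and none of the 6 was called between the groups. Alb made up most of that sum, at 57197 to 112935 CPM. Of the 6, 5 had a log2 fold change above 0, with Apoa1 higher without overlap (0.70, edgeR adjusted p = 0.109). Cps1 was below 0 (-0.85, edgeR adjusted p = 0.110).

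Few of the members differed between the groups, and those that did went both ways. A gene was called when its p in edgeR's quasi-likelihood test, adjusted by Benjamini and Hochberg's method over all genes tested, was under 0.05 and the absolute log2 fold change was over 0.58. Calls were made for 6 of the 40 members, or 15.0%, against 15.8% of all genes tested, so the members as a whole were called about as often as any gene. Stat2, Oas2 and Gbp3 were higher in livers labelled B4galt1 hep-/-, where 8.00% of all genes were called higher, and Irgm2, Oasl1 and Ifi27 were lower, where 7.83% of all genes were called lower. All 6 belong to the 23 interferon-induced genes, of which 26.1% were thus called, and none of the 10 class I or 7 class II members was called. The median log2 fold change was -0.03 over the interferon-induced members, 0.09 over class I and -0.32 over class II, beside 0.02 over all genes tested. Without B4galt1 hep-/- replicate 3 the calls of Stat2, Irgm2 and Ifi27 remained and no other member was called, while 13.8% of all genes tested were. The groups did not overlap for 9 of the 40 members, or 22.5%, against 28.6% of all genes tested. These were the 6 called members with Irf9, Usp18 and H2-DMb1. In whole liver, fewer cells of a type and less RNA per cell cannot be told apart.

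**Figure D1:**
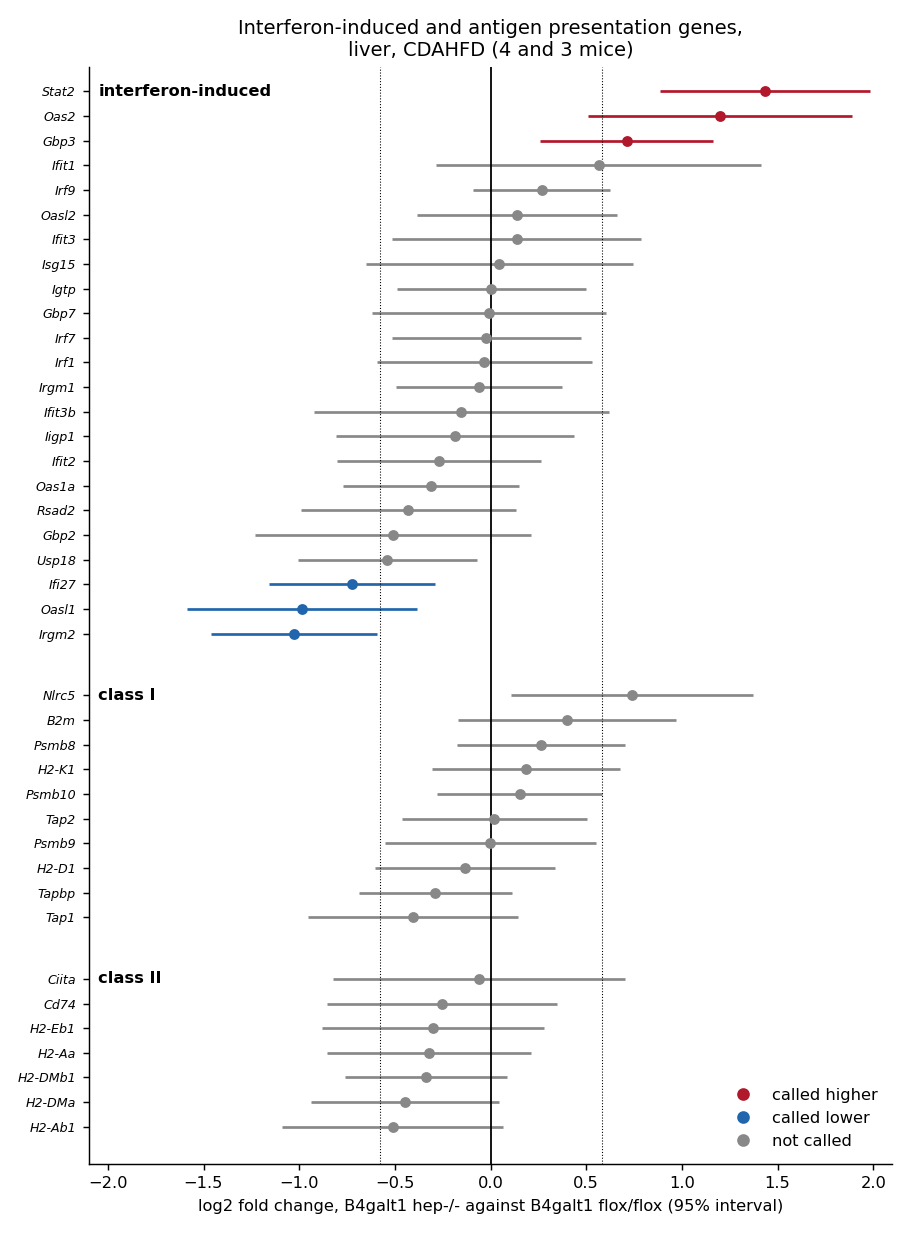
Log2 fold change of each of the 40 members in livers labelled B4galt1 hep-/- (3 mice) against B4galt1 flox/flox (4 mice), on the horizontal axis, with its 95% interval as a bar and dotted lines at the fold change threshold. Red and blue points are members called higher and lower: 3 of each among the interferon-induced genes, and none among the class I and class II genes, whose intervals include 0 for all but Nlrc5.

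Among the member transcription factors of the interferon response, Stat2 was called and Irf9, Irf1 and Irf7 were not. Stat2 (NCBI gene 20847), a subunit of ISGF3, was measured at 65.9, 43.6, 28.8 and 46.4 CPM in B4galt1 flox/flox livers and at 109, 140 and 125 CPM in livers labelled B4galt1 hep-/-. Every liver of the second group was above every liver of the first. The mean rose from 46.2 ± 15.2 (SD, n = 4) to 125 ± 15.3 CPM (SD, n = 3), a log2 fold change of 1.43 (SE 0.25, edgeR adjusted p = 0.00631), or 2.70-fold. This call was kept in each of the 7 fits that left out 1 mouse, with a log2 fold change of 1.42 and an edgeR adjusted p of 0.0137 without B4galt1 hep-/- replicate 3.

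Irf9, the DNA-binding subunit of ISGF3, was at 34.7, 33.6, 30.7 and 33.1 CPM in B4galt1 flox/flox livers and at 38.9, 44.2 and 36.0 CPM in the others. The groups did not overlap, but the difference did not pass the test (log2 fold change 0.27, SE 0.16, edgeR adjusted p = 0.280). Irf1, an early target of interferon gamma, had group means of 39.6 ± 13.3 (SD, n = 4) and 38.7 ± 7.22 CPM (SD, n = 3). Irf7, which amplifies the production of type I interferon, had means of 40.1 ± 5.51 (SD, n = 4) and 39.5 ± 13.2 CPM (SD, n = 3). For both, the livers of the groups were intermixed.

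**Figure D2:**
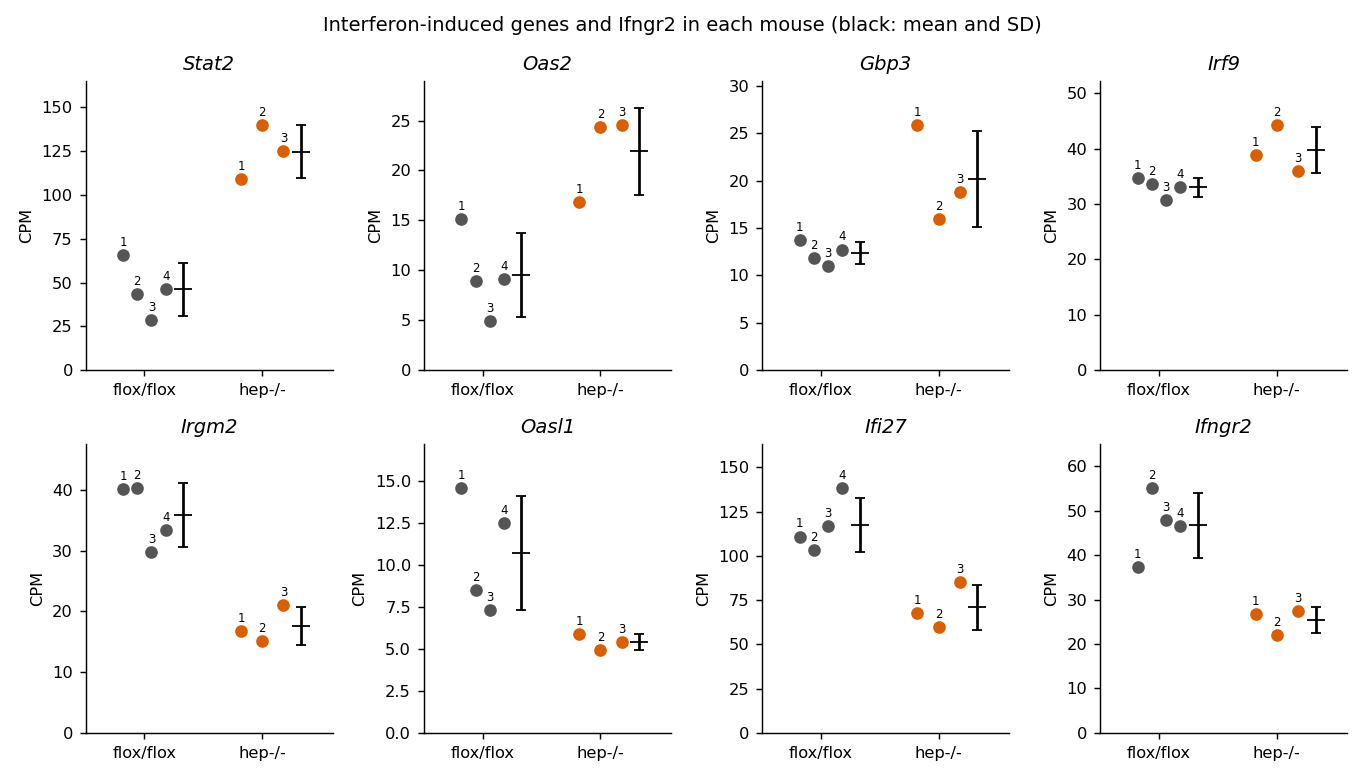
CPM of Stat2, Oas2, Gbp3 and Irf9 (top) and Irgm2, Oasl1, Ifi27 and Ifngr2, a receptor chain, (bottom) in each mouse, with its replicate number beside each point and the mean and SD in black, for 4 B4galt1 flox/flox mice (grey) and 3 mice labelled B4galt1 hep-/- (orange). In each panel the points of the groups do not overlap, with livers labelled B4galt1 hep-/- above in the top row and below in the bottom row.

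The oligoadenylate synthetase family, whose active members make the 2'-5' oligoadenylates that turn on RNase L, was split. Oas2 (NCBI gene 246728) was measured at 15.2, 8.93, 4.92 and 9.15 CPM in B4galt1 flox/flox livers and at 16.9, 24.3 and 24.5 CPM in livers labelled B4galt1 hep-/-. The lowest liver of the second group lay just above the highest of the first. Oas2 rose on the log2 scale by 1.20 (SE 0.32, edgeR adjusted p = 0.0274). The call was lost without B4galt1 flox/flox replicate 2 or 4 or B4galt1 hep-/- replicate 2 or 3, with edgeR adjusted p values of 0.0607 to 0.0850.

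Oasl1 (NCBI gene 231655), a family member without the synthetase activity that holds back translation of Irf7, fell. It was at 14.6, 8.51, 7.33 and 12.5 CPM in B4galt1 flox/flox livers and at 5.88, 4.95 and 5.43 CPM in the others, without overlap. The log2 fold change was -0.99 (SE 0.28, edgeR adjusted p = 0.0340). Only the fit without B4galt1 flox/flox replicate 3, of the 7 that left out 1 mouse, kept the call, and the other 6 gave edgeR adjusted p values of 0.0620 to 0.0894. Oas1a and Oasl2 were not called. Oas1a ranged over 9.29 to 13.1 CPM and 8.38 to 10.3 CPM in the respective groups, and shares 57.6% of its transcript's 50-base windows with Oas1g, so its counts could be split between copies.

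Among the interferon-induced GTPases, 1 of 7 rose, 1 fell and 5 were not called. Over all genes tested, 8.00% were called higher and 7.83% lower. The GBP and IRG proteins coat vacuoles that hold intracellular microbes. Gbp3 (NCBI gene 55932) stood at 13.8, 11.9, 11.01 and 12.7 CPM in B4galt1 flox/flox livers and at 25.9, 16.0 and 18.8 CPM in livers labelled B4galt1 hep-/-. Every liver of the latter group was higher, and replicate 1 most of all. Its log2 fold change was 0.71 (SE 0.21, edgeR adjusted p = 0.0397). The call was lost without B4galt1 flox/flox replicate 2, 3 or 4 or B4galt1 hep-/- replicate 1 or 3, with edgeR adjusted p values of 0.0617 to 0.160, and with limma on FPKM (log2 fold change 0.47 to 0.55).

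Irgm2 (NCBI gene 54396), a regulatory GTPase of the IRG family, was at 40.2, 40.4, 29.8 and 33.4 CPM in B4galt1 flox/flox livers and at 16.7, 15.1 and 21.1 CPM in the others. All 3 livers of the latter group were below all 4 controls. It fell by 1.03 on the log2 scale (SE 0.20, edgeR adjusted p = 0.00885), to 49.0% of the control level. The call was kept whichever mouse was left out, and the log2 fold change without B4galt1 hep-/- replicate 3 was -1.18 (edgeR adjusted p = 0.0108). In the GENCODE annotation 4.39% of its exonic bases overlap its neighbour Igtp, whose means were 24.7 ± 6.64 (SD, n = 4) and 24.7 ± 3.18 CPM (SD, n = 3).

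The other GTPases had overlapping groups. Iigp1, whose level per base of gene length was the highest among them, ranged over 209 to 304 CPM in B4galt1 flox/flox livers and 142 to 337 CPM in the others. Irgm1 ranged over 34.3 to 48.9 and 31.8 to 47.6 CPM. Gbp2 ranged over 8.93 to 16.0 and 4.43 to 12.5 CPM, and Gbp7 over 11.8 to 18.7 and 9.17 to 21.8 CPM. The spread between mice of a group was wider than the gap between groups for each of these genes.

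The IFIT genes, Isg15 and Rsad2 were not called. Ifit1, which binds RNA lacking host cap marks, was at 7.40, 6.15, 5.20 and 12.7 CPM in B4galt1 flox/flox livers and at 19.6, 7.72 and 7.50 CPM in livers labelled B4galt1 hep-/-. Isg15, a ubiquitin-like modifier, was at 12.0, 10.7, 5.83 and 15.2 CPM and at 15.6, 8.38 and 9.90 CPM. In both genes B4galt1 hep-/- replicate 1 was the highest of the 7 livers, and its fellow replicates lay among the controls. That mouse was the highest of its group in 13 of the 23 interferon-induced members and replicate 2 was the lowest of all 7 livers in 11 of them.

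Ifit3 ranged over 8.39 to 17.6 CPM in B4galt1 flox/flox livers and 9.32 to 19.4 CPM in the others, and it shares 51.2% of its 50-base windows with Ifit3b, which was far lower at 1.83 to 3.36 and 1.84 to 2.79 CPM. Ifit2 spanned 7.03 to 9.52 and 5.34 to 8.44 CPM. Rsad2, which encodes viperin and makes a chain-terminating nucleotide, spanned 7.53 to 11.1 and 4.83 to 8.34 CPM. The log2 fold changes of the 15 interferon-induced members that were not called and had overlapping groups lay between -0.51 (Gbp2) and 0.57 (Ifit1), 10 of them below 0 and 5 above, and their smallest edgeR adjusted p was 0.269. The narrowest 95% interval among these 15 was that of Irgm1, from -0.50 to 0.37 on the log2 scale, and the widest that of Ifit1, from -0.28 to 1.41.

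Usp18, the protease that removes ISG15 and dampens the type I interferon receptor, was at 20.8, 22.4, 21.2 and 26.4 CPM in B4galt1 flox/flox livers and at 17.0, 11.1 and 18.7 CPM in livers labelled B4galt1 hep-/-. Each of the latter was lower, but the difference was not called (log2 fold change -0.54, SE 0.21, edgeR adjusted p = 0.105). It was called lower by limma on log2(FPKM + 1) (-0.63, limma adjusted p = 0.01535). Ifi27 (NCBI gene 52668), a small mitochondrial protein induced by type I interferon, stood at 111, 103, 117 and 138 CPM in B4galt1 flox/flox livers and at 67.9, 59.96 and 85.1 CPM in the others. No liver of the latter group reached the controls, and Ifi27 fell by 0.73 on the log2 scale (SE 0.20, edgeR adjusted p = 0.0316). Without B4galt1 hep-/- replicate 3 its log2 fold change was -0.88 (edgeR adjusted p = 0.0250), and the call was lost without B4galt1 flox/flox replicate 2, 3 or 4 or B4galt1 hep-/- replicate 1 or 2, with edgeR adjusted p values of 0.0618 to 0.0868.

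**Figure D3:**
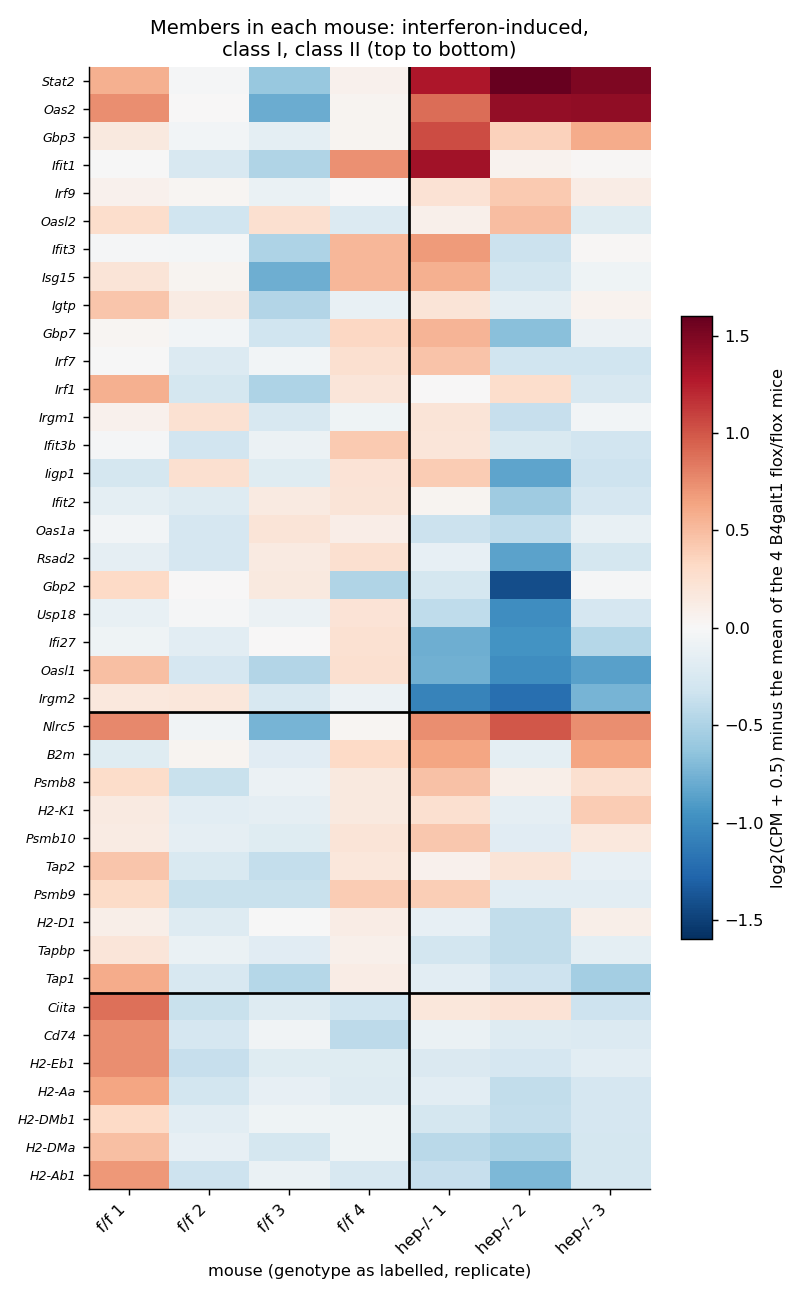
Each of the 40 members (rows) in each of the 7 mice (columns), as log2(CPM + 0.5) minus the mean of the 4 B4galt1 flox/flox mice (f/f), with interferon-induced, class I and class II genes in 3 blocks ordered by fold change. Rows that change colour at the vertical line are few, whereas the class II block is darkest in B4galt1 flox/flox replicate 1, where all 7 genes had their highest value.

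Upstream of these genes, interferon transcripts were barely counted. Of 21 listed interferon ligand genes, 4 had rows (Ifnb1, Ifnk, Ifnz and Ifng), none passed the filter, and the highest of their values was 0.302 CPM, for Ifng in B4galt1 hep-/- replicate 2. Of 15 receptor and signalling genes reported here, 2 fell and 1 rose, so 20% were called against 15.8% of all genes tested. Ifngr2, the signalling chain of the interferon gamma receptor, was at 37.3, 55.1, 47.9 and 46.5 CPM in B4galt1 flox/flox livers and at 26.7, 22.02 and 27.5 CPM in the others, with no overlap (log2 fold change -0.88, SE 0.19, edgeR adjusted p = 0.0134; -0.95 and edgeR adjusted p = 0.0242 without B4galt1 hep-/- replicate 3). Its partner chain Ifngr1 had means of 50.4 ± 8.52 (SD, n = 4) and 47.2 ± 4.45 CPM (SD, n = 3), and the type I receptor chain Ifnar1 had means of 52.8 ± 5.37 (SD, n = 4) and 49.3 ± 8.91 CPM (SD, n = 3).

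Stat3, which carries interleukin-6 signals, fell by 0.60 on the log2 scale (SE 0.19, edgeR adjusted p = 0.0492), and of the 7 fits leaving out 1 mouse only that without B4galt1 hep-/- replicate 3 kept the call, the others giving edgeR adjusted p values of 0.0524 to 0.148. Its call was also lost with RLE scaling (-0.59), upper-quartile scaling (-0.57) and a filter of 1 count in any mouse (-0.62). Ptpn2, a phosphatase that acts on JAK1, rose by 0.69 (SE 0.18, edgeR adjusted p = 0.0284), and lost the call without B4galt1 flox/flox replicate 2 or 3 or B4galt1 hep-/- replicate 1 or 3 (edgeR adjusted p 0.0547 to 0.0868) and with limma on FPKM (log2 fold change 0.39 to 0.54). Of 19 tested genes of nucleic acid sensing, 3 fell and none rose. These 15.8% compare with 15.8% of all genes called in either direction and 7.83% called lower. Ifih1, the RNA sensor MDA5, was at 25.02, 39.8, 33.5 and 34.9 CPM in B4galt1 flox/flox livers and at 24.4, 14.7 and 17.3 CPM in the others, which lay below all controls (log2 fold change -0.82, SE 0.23, edgeR adjusted p = 0.0325). Samhd1, a nuclease that limits free nucleotides, fell by 0.64 (SE 0.19, edgeR adjusted p = 0.0424).

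Both calls were lost without B4galt1 hep-/- replicate 3 (Ifih1 -0.77, edgeR adjusted p = 0.0828; Samhd1 -0.68, edgeR adjusted p = 0.0709). Ifih1 also lost its call without B4galt1 flox/flox replicate 2, 3 or 4 or B4galt1 hep-/- replicate 2, up to an edgeR adjusted p of 0.101, and Samhd1 without B4galt1 flox/flox replicate 1, 2 or 3 or B4galt1 hep-/- replicate 1 or 2, up to 0.114, and with upper-quartile scaling (-0.61). Tlr9, the endosomal DNA sensor, was the third gene to fall (edgeR adjusted p = 0.0123), at 0.424 to 1.78 CPM in B4galt1 flox/flox livers and 0 to 0.0905 CPM in the others, where 3 counts correspond to 0.0905 to 0.0987 CPM.

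Among 43 further interferon-stimulated genes tested, 2 rose and 4 fell, so 14.0% were called, below the 15.8% of all genes tested. Ifi203, of the DNA-sensing PYHIN family, was at 25.8, 20.7, 27.4 and 22.8 CPM in B4galt1 flox/flox livers and at 52.3, 50.9 and 46.4 CPM in the others, a rise of 1.04 on the log2 scale (SE 0.17, edgeR adjusted p = 0.00501). Lgals3bp, a secreted glycoprotein that binds galectins, was at 129, 110, 131 and 83.3 CPM and at 34.4, 40.5 and 48.3 CPM (log2 fold change -1.47, SE 0.22, edgeR adjusted p = 0.00380). For both genes the groups did not overlap and the call was kept whichever mouse was left out. Ly6e fell by 1.004 (SE 0.24, edgeR adjusted p = 0.0189) and Dtx3l, a ubiquitin ligase, by 1.20 (SE 0.28, edgeR adjusted p = 0.0173). Ly6e lost its call without B4galt1 flox/flox replicate 2 or B4galt1 hep-/- replicate 1 (edgeR adjusted p 0.0563 and 0.0574). Dtx3l lost it without B4galt1 flox/flox replicate 2 or B4galt1 hep-/- replicate 2 or 3 (edgeR adjusted p 0.0517 to 0.0570).

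The promoters of the interferon-induced genes were read for ISRE and GAS elements. RefSeq promoters of the GRCm38.p6 assembly, from 250 bases before the start site to 50 after it, were at hand for 31 of the 40 members, among them 19 interferon-induced genes. The letters GAAANNGAAA of the ISRE were searched on both strands, where N is any base. They were found in 13 of those 19 promoters, against 3.99% of the promoters of 27025 genes. The 13 comprised 3 of the 4 called members with a promoter (Stat2, Gbp3 and Irgm2) and 10 of the 15 that were not called, among them Isg15 and Ifit1. The GAS letters TTCNNNGAA were in 6 of the 19, against 9.55% of all, and no match of one motif overlapped a match of another in the members. The stretches below are shown since all 5 hold the same element upstream of their start sites, in a gene that rose (Stat2, Gbp3), a gene that fell (Irgm2) and genes that were not called (Isg15, Ifit1). Capitals mark the ISRE letters, which read as their reverse complement where the match is on the opposite strand, and the positions are chr10:128270251-128270310 (plus strand) for Stat2, chr3:142559974-142560039 (plus) for Gbp3, chr11:58214888-58214947 (plus) for Irgm2, chr4:156200850-156200921 (minus) for Isg15 and chr19:34640760-34640838 (plus) for Ifit1.
Stat2: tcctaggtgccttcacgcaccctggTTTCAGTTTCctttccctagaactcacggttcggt
Gbp3: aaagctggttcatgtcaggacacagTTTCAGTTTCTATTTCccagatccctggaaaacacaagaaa
Irgm2: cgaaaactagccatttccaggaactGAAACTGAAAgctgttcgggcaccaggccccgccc
Isg15: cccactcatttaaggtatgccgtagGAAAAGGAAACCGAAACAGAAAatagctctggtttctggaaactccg
Ifit1: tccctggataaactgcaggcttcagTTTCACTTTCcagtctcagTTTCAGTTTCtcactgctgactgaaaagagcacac

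Stat2 and Irgm2, which moved in opposite directions, each hold 1 match in the stretch shown, Gbp3 and Ifit1 hold 2 and Isg15 holds 3. A match describes the letters and does not show that a factor was bound.

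None of the 10 class I members was called by edgeR, 1 of them had an unadjusted p under 0.05 (Nlrc5), and DESeq2 gave the same counts of 0 and 1. Class I genes held the 3 highest levels among the members: per kilobase of gene length, B2m, the light chain, stood at 2307 CPM in B4galt1 flox/flox livers and 3039 CPM in the others, the heavy chain H2-D1 at 742 and 677 CPM, and H2-K1 at 705 and 801 CPM. B2m was at 1716, 2025, 1731 and 2445 CPM in B4galt1 flox/flox livers and at 3040, 1753 and 3030 CPM in livers labelled B4galt1 hep-/-. Replicates 1 and 3 of the latter were above all controls, and replicate 2 lay among them.

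H2-K1 ranged over 1363 to 1707 CPM and 1381 to 2020 CPM, and H2-D1 over 1111 to 1395 and 979 to 1374 CPM. H2-D1 shares 14.3% of its 50-base windows with other genes and H2-K1 shares 8.11%, so reads could be split between such copies. The peptide transporter subunits and their partner were not called. Tap1 ranged over 19.0 to 39.8 and 17.9 to 23.2 CPM, Tap2 over 22.98 to 40.9 and 27.3 to 34.8 CPM, and Tapbp, which bridges TAP to class I, over 107 to 139 and 92.0 to 109 CPM. Their log2 fold changes were -0.41 (95% interval -0.95 to 0.14), 0.02 (-0.47 to 0.50) and -0.29 (-0.69 to 0.11). In the GENCODE annotation 29% of the exonic bases of Tapbp, 18.5% of those of Tap2 and 14.7% of those of the immunoproteasome gene Psmb8 overlap other genes.

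The immunoproteasome subunits were not called. Psmb8 was at 55.9, 35.3, 42.3 and 50.6 CPM in B4galt1 flox/flox livers and at 63.2, 48.3 and 54.2 CPM in the others, and the groups overlapped. Psmb9 spanned 15.5 to 26.6 and 17.6 to 26.4 CPM, and Psmb10 spanned 32.0 to 42.1 and 32.2 to 49.3 CPM. These subunits take the place of the constitutive Psmb5, Psmb6 and Psmb7, so their level per base of gene length was set against those within each mouse, a choice made after the values were seen and not tested. Psmb8 stood at 0.249 to 0.382 of Psmb5 in B4galt1 flox/flox livers and at 0.425 to 0.466 in livers labelled B4galt1 hep-/-, and Psmb10 at 0.210 to 0.322 and 0.373 to 0.532 of Psmb7, both without overlap. Psmb9 stood at 0.124 to 0.206 of Psmb6 and at 0.127 to 0.162 in the others, which overlapped. The constitutive genes moved within these ratios: the log2 fold change was -0.32 for Psmb5 (edgeR adjusted p = 0.277) and -0.70 for Psmb7 (edgeR adjusted p = 0.0520), against 0.26 for Psmb8 and 0.15 for Psmb10, so the ratios do not show a rise of the immunoproteasome subunits.

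Nlrc5, the class I coactivator, was at 52.0, 29.1, 17.9 and 30.8 CPM in B4galt1 flox/flox livers and at 50.8, 60.8 and 50.9 CPM in livers labelled B4galt1 hep-/-. B4galt1 flox/flox replicate 1 lay among the latter group and the other 3 controls lay below it. The difference was not called (log2 fold change 0.74, SE 0.29, edgeR adjusted p = 0.102), but was called higher without B4galt1 flox/flox replicate 1 (1.07, edgeR adjusted p = 0.0154). Without B4galt1 hep-/- replicate 3 it was 0.77 (edgeR adjusted p = 0.144). The log2 fold changes of the 10 members ran from -0.41 (Tap1) to 0.74, with 95% intervals that reached from -0.95 to 1.37.

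Of 23 further class I genes, such as chaperones and nonclassical heavy chains, 4 fell and none rose. These 17.4% compare with 15.8% of all genes called in either direction and 7.83% called lower. Canx, the chaperone calnexin, was at 168, 211, 256 and 208 CPM in B4galt1 flox/flox livers and at 93.0, 60.5 and 116 CPM in the others (log2 fold change -1.23, SE 0.25, edgeR adjusted p = 0.0106). Cd1d1, which presents lipids to NKT cells, was at 218, 219, 198 and 221 CPM and at 79.7, 77.5 and 139 CPM (log2 fold change -1.12, SE 0.24, edgeR adjusted p = 0.0120). Both groups of values were well apart, and both calls were kept whichever mouse was left out. Fcgrt, the neonatal Fc receptor that salvages IgG and albumin, fell by 0.79 (SE 0.20, edgeR adjusted p = 0.0221), and the nonclassical H2-Q1 by 0.96 (SE 0.26, edgeR adjusted p = 0.0307). H2-Q1 lost its call without B4galt1 flox/flox replicate 2 or 4 or B4galt1 hep-/- replicate 2 or 3 (edgeR adjusted p 0.0628 to 0.0999), and Fcgrt without B4galt1 flox/flox replicate 2 or B4galt1 hep-/- replicate 1 or 2 (0.0514 to 0.0622).

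The heavy chain promoters carry a shared element that is rare elsewhere. The kappaB letters GGGGANTCCCC, searched on both strands, were in the promoters of H2-K1 and H2-D1 and in 0.0555% of all 27025. The 2 stretches, shown for this element in capitals, lie at chr17:34000423-34000483 (minus strand) for H2-K1 and chr17:35262898-35262958 (plus strand) for H2-D1, and are identical at 60 of 61 positions.
H2-K1: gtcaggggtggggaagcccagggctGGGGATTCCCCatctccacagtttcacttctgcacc
H2-D1: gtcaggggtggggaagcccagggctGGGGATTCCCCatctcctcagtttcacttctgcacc

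Neither gene was called, and their log2 fold changes were 0.18 (SE 0.23) for H2-K1 and -0.13 (SE 0.22) for H2-D1. The ISRE letters were found in full in 1 of 8 class I promoters, that of B2m. The stretches of H2-K1 and H2-D1 both read tttcacttct after the kappaB letters. That run holds only part of the ISRE letters, on the opposite strand, and was not counted. An exact search leaves out such partial matches, so it does not show that the other class I promoters lack an ISRE.

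None of the 7 class II members was called and none had an unadjusted p under 0.05 by edgeR or DESeq2. All 7 log2 fold changes were below 0, from -0.51 (H2-Ab1) to -0.06 (Ciita), and in all 7 the highest liver was B4galt1 flox/flox replicate 1. Cd74, the invariant chain, was at 580, 287, 332 and 259 CPM in B4galt1 flox/flox livers and at 321, 300 and 297 CPM in livers labelled B4galt1 hep-/-. H2-Aa, the alpha chain of I-A, was at 262, 138, 155 and 146 CPM and at 151, 129 and 140 CPM, and its partner H2-Ab1 at 186, 91.2, 106 and 96.0 CPM and at 88.4, 69.6 and 94.1 CPM. Apart from replicate 1, the control livers lay close to the others.

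H2-Eb1, the beta chain of I-E, showed the same order, at 216 CPM in B4galt1 flox/flox replicate 1, 99.96 to 113 CPM in the other controls and 106 to 114 CPM in livers labelled B4galt1 hep-/-. Ciita, the class II coactivator, was at 11.9 CPM in that mouse, 4.77 to 5.39 CPM in the other controls and 4.87 to 7.39 CPM in the latter group. Without B4galt1 flox/flox replicate 1 the median log2 fold change of the 7 genes was -0.06, against -0.32 with it, and -0.34 without B4galt1 hep-/- replicate 3.

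The DM chaperones exchange peptides on class II molecules. H2-DMb1 was at 20.7, 14.6, 15.7 and 15.8 CPM in B4galt1 flox/flox livers and at 13.5, 12.6 and 13.7 CPM in the others. The groups did not overlap, but the difference was small and was not called (log2 fold change -0.34, SE 0.19, edgeR adjusted p = 0.246). H2-DMa ranged over 12.8 to 22.01 and 10.9 to 12.8 CPM. It is listed with a length of 8325 bases in the authors' FPKM values, against 3448 exonic bases in GENCODE, and 10.4% of those bases overlap Brd2, so its level per length is uncertain.

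Calls were made among the proteases and regulators that serve class II. Of 17 further class II genes, 4 fell and 1 rose, so 29.4% were called against 15.8% of all genes tested, and all 5 calls remained without B4galt1 hep-/- replicate 3. As the list was chosen with earlier results of these data known, the difference between these shares was not tested. Ctss, the cathepsin that trims the invariant chain in antigen-presenting cells, was at 454, 467, 715 and 366 CPM in B4galt1 flox/flox livers and at 194, 129 and 242 CPM in the others (log2 fold change -1.41, SE 0.29, edgeR adjusted p = 0.0106). Ctsd, a lysosomal aspartic protease, was at 1155, 1128, 1728 and 905 CPM and at 432, 410 and 492 CPM (log2 fold change -1.47, SE 0.26, edgeR adjusted p = 0.00626). In both genes B4galt1 flox/flox replicate 3 was the highest liver and all livers labelled B4galt1 hep-/- were below all controls.

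Ctsb, a lysosomal cysteine protease, fell by 1.09 (SE 0.23, edgeR adjusted p = 0.0120). Rfxank, a subunit of the RFX complex on class II promoters, was at 11.7, 10.3, 6.63 and 8.82 CPM in B4galt1 flox/flox livers and at 18.1, 27.9 and 31.1 CPM in the others. It rose by 1.45 on the log2 scale (SE 0.25, edgeR adjusted p = 0.00581; 1.28 and 0.0165 without B4galt1 hep-/- replicate 3). Rfx5, the DNA-binding subunit of that complex, had means of 8.19 ± 2.62 (SD, n = 4) and 8.26 ± 2.44 CPM (SD, n = 3).

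**Figure D4:**
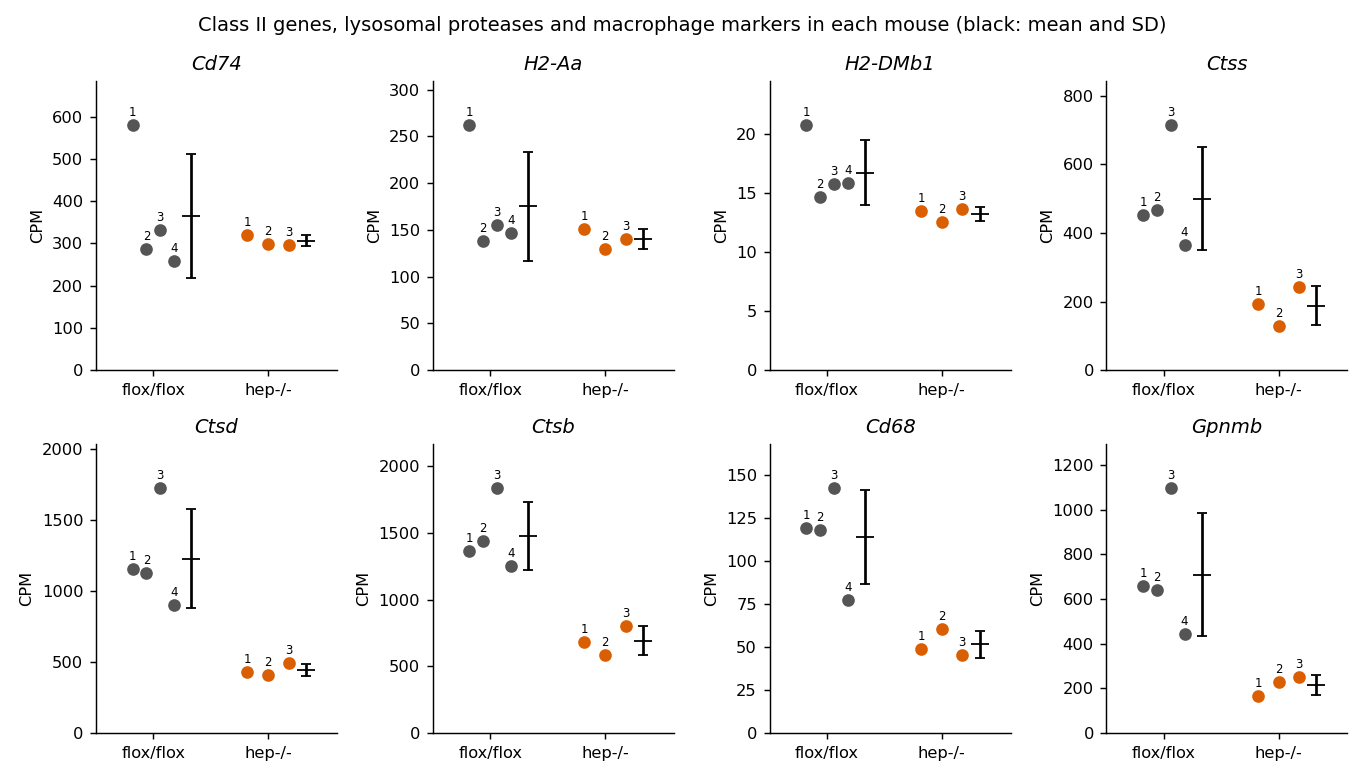
CPM of the class II genes Cd74, H2-Aa and H2-DMb1, the lysosomal proteases Ctss, Ctsd and Ctsb, and the macrophage markers Cd68 and Gpnmb in each mouse, with its replicate number beside each point and the mean and SD in black, for 4 B4galt1 flox/flox mice (grey) and 3 mice labelled B4galt1 hep-/- (orange). Replicate 1 is the highest control for the class II genes and replicate 3 for the proteases and macrophage markers, and only the proteases and markers were called lower.

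Some macrophage markers were called lower alongside the proteases. Of 12 such markers, 6 (50%) were lower and none was higher in livers labelled B4galt1 hep-/-, where 7.83% of all genes tested were called lower, and their summed level was 1226, 1140, 2004 and 994 CPM in B4galt1 flox/flox livers and 526 to 567 CPM in the others. None was at 0 in any liver. Gpnmb alone made up 656, 640, 1098 and 443 CPM of that sum in the controls and 165, 228 and 251 CPM in the others. The other 6 markers were not called, and 2 of them had a log2 fold change above 0, Ccr2 (0.05) and Cd163 (0.86, at 0.0920 to 1.01 CPM). Ptprc, a marker of all leukocytes, was not called either (log2 fold change 0.37, edgeR adjusted p = 0.231). Gpnmb, a marker of lipid-associated macrophages, fell by 1.72 (SE 0.31, edgeR adjusted p = 0.00691), Adgre1, which encodes F4/80, by 1.88 (SE 0.43, edgeR adjusted p = 0.0159), and the lysosomal Cd68 by 1.15 (SE 0.23, edgeR adjusted p = 0.0103). Adgre1 was at 71.3 CPM in B4galt1 flox/flox replicate 3 and at 20.1 to 25.6 CPM in the other controls, and without that mouse its log2 fold change was -1.27 and still called. Trem2, a lipid receptor of the same cells, fell by 0.83 (SE 0.21, edgeR adjusted p = 0.0254), and lost its call without B4galt1 flox/flox replicate 2 or 3 or B4galt1 hep-/- replicate 1 or 3 (edgeR adjusted p 0.0588 to 0.0750, log2 fold change -0.88 to -0.72). Of the 6 calls, 3 remained without B4galt1 hep-/- replicate 3 and 3 without B4galt1 flox/flox replicate 3.

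The summed level of the 7 class II genes was 1299, 650, 740 and 650 CPM in B4galt1 flox/flox livers and 702, 636 and 677 CPM in the others. Dendritic cell markers, of which Itgax fell and Clec9a rose among 9 (22.2% called, against 15.8% of all genes tested), summed to 66.6 to 101 and 64.5 to 85.9 CPM. Itgax made up most of that sum in the controls, and the other 8 markers summed to 28.1, 19.6, 24.2 and 23.9 CPM in B4galt1 flox/flox livers and 44.1, 44.5 and 37.4 CPM in the others, without overlap, a split made after the values were seen and not tested. Of the 9 markers 6 had a log2 fold change above 0, and the median was 0.54. Flt3 and Zbtb46 were also higher without overlap but were not called (edgeR adjusted p = 0.146 and 0.107). Itgax lost its call without B4galt1 flox/flox replicate 1, 2 or 3 or B4galt1 hep-/- replicate 1 or 3 (edgeR adjusted p 0.0523 to 0.0857), and Clec9a kept it whichever mouse was left out. B cell markers summed to 13.5 to 18.7 and 10.3 to 21.4 CPM with none of 6 called, and T and NK cell markers to 15.2 to 38.0 and 20.2 to 54.5 CPM with none of 8 called. B4galt1 flox/flox replicate 1 had the highest sum of B cell and of T and NK cell markers among the controls, at 18.7 and 38.0 CPM. The part of these cells in the class I, class II and protease values was not tested.

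Promoters of 4 class II members were at hand, and the Y box letters CTGATTGG, an element of class II promoters, were in 2 of them, in 4 of 8 class I promoters and in 4.7% of all. They are shown in capitals for the I-A alpha and I-E beta chains, at chr17:34287840-34287899 (minus strand) for H2-Aa and chr17:34305780-34305839 (plus strand) for H2-Eb1.
H2-Aa: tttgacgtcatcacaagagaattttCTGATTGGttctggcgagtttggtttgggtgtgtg
H2-Eb1: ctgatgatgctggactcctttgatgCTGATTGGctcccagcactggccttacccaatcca

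The log2 fold changes of these 2 genes were -0.32 (SE 0.24, edgeR adjusted p = 0.381) and -0.30 (SE 0.27, edgeR adjusted p = 0.458).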

How the data were processed

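Whole liver of 4 control mice (B4galt1 flox/flox) and 3 mice labelled B4galt1 hep-/- was sequenced, 1 library per mouse. RNA was extracted with TRIzol and libraries were made with a VAHTS Universal V6 kit. The submitters' processing notes list fastp, HISAT2, HTSeq, DESeq2 and R 3.2.0 with the build GRCm39, without roles. The annotation and the strand setting are not given in the sources used here. The authors deposited whole-number counts per gene that were not normalized, and FPKM values of the same genes, which scale each count by gene length and by the library's total. FPKM gave the gene lengths used for levels per kilobase.

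Of 23347 genes, edgeR's filterByExpr (minimum count 10, minimum total 15) kept 15179. After TMM scaling, the quasi-likelihood test of edgeR 4.0.16 (R 4.3.3) compared the groups with no covariate, and p-values were adjusted by Benjamini and Hochberg's method over all genes tested. A gene was called below an adjusted p of 0.05 and beyond 0.58 on the log2 scale in either direction, the study's thresholds. No source used here names batches of extraction or sequencing. Library totals are in the report, and 3 counts correspond to 0.069 to 0.0987 CPM. No 2 of the 7 libraries were alike within sampling noise. The fit was also run on counts simulated with the same dispersion for all genes, which is simpler than the data, and no result here rests on that run.

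The members and lists were chosen with earlier results of these data known. All members are named, with full statistics for those called or without overlap, and up to 4 genes of each further list by adjusted p. A gene of the receptor and signalling list is not reported here. Overlapping exons and shared 50-base windows were counted in GENCODE transcripts of GRCm38. Since that is not the build of the files, coordinates are given only for the printed stretches, from RefSeq promoters of GRCm38.p6. Alternatives were DESeq2 1.42.0, other scalings and filters, limma 3.58.1 on log2(FPKM + 1) or log2(FPKM + 0.1) on genes that reach an FPKM of 1 in 3 mice or, with the former, on all genes above 0, no mitochondrially encoded genes, the replicate number as a block, no fold change threshold, and each mouse left out. A pseudocount makes changes of low FPKM values look smaller.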

Additional observations from a re-analysis of the deposited data

Results flagged for a closer look

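In the 4 B4galt1 flox/flox mice, 41 genes (the 40 members and B4galt1) were screened for a mouse whose distance to its nearest neighbour took up more than the critical share of the group's range, and 4 were found. All 4 were class II genes with a high value in B4galt1 flox/flox replicate 1: Ciita at 11.93 CPM against 4.768 to 5.388 CPM in the other 3 mice, H2-Aa at 262.1 CPM against 138.3 to 155.0 CPM, H2-Ab1 at 185.5 CPM against 91.22 to 106.5 CPM and H2-Eb1 at 216.4 CPM against 99.96 to 112.7 CPM. Chance alone marks about 1 in 20 such groups, and genes that vary together in a mouse are marked together. The group labelled B4galt1 hep-/- has 3 mice and was not screened.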

How the results depend on the processing

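Stat2 and Irgm2 kept their direction and their call in all 17 alternatives, with log2 fold changes of 1.26 to 1.66 and -1.18 to -0.93. Direction was kept in every alternative for each of the 6 called members, while the call was lost in 5 of 17 for Oas2, 8 for Oasl1, 9 for Gbp3 and 6 for Ifi27. Calls among interferon-induced members numbered 6 and fell to 2 to 5 when a mouse was left out, among class I members they were 0 to 1, and among class II members 0 in each alternative. Over all genes they numbered 2404 and ranged from 885 to 2396 with a mouse left out, the fewest without B4galt1 flox/flox replicate 2. DESeq2 called 3281 genes, within 1.5 times of that. Limma on log2(FPKM + 1) for every gene above 0 called 1330 genes around a median change of -0.003 (log2). It ended the calls of the members Oas2, Oasl1 and Gbp3. Among the further genes it ended those of Ptpn2, Tlr9, Samhd1, Samd9l, H2-Q1, Adgre1, Cd68, Vsig4, Marco, Trem2, Itgax and Kdr. On the genes that reach an FPKM of 1 in 3 mice the median was -0.14 with limma on log2(FPKM + 1), whose 2294 calls were 561 higher and 1733 lower against 1215 and 1189 with edgeR, and -0.18 with a pseudocount of 0.1 (601 and 1946). These fits differ from edgeR's in test, scaling and genes at once, and the cause was not tested. With the replicate number as a block, 3 interferon-induced members (2 higher, 1 lower) and 1267 genes in all were called. Deviations of mice with the same number correlated at -0.42, -0.10 and 0.09, and 0 of the 3 mice labelled B4galt1 hep-/- correlated best with its own number. Correlations over so few mice cannot decide whether mice with the same number share a litter or batch. The member with the fewest reads was counted 56 times in a mouse.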
